A study of Chlamydomonas reinhardtii with 16 samples.

Results

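The genes described here take up inorganic carbon, or control its uptake, in the carbon-concentrating mechanism of the green alga *Chlamydomonas reinhardtii*. They are LCIA (Cre06.g309000), LCI1 (Cre03.g162800), HLA3 (Cre02.g097800), LCIB (Cre10.g452800), LCIC (Cre06.g307500), CCP1 (Cre04.g223300), CCP2 (Cre04.g222750) and the regulator CIA5 (Cre02.g096300), 8 of the 17114 gene models measured. They were chosen by name and gene model, not by how they varied, though earlier results of these data were known at that time. Each of the 8 has an entry in every library, which for LCIA, LCI1 and CCP1 was 0 in some. RNA was sequenced from 16 cultures of strain dw15.1, harvested every 3 hr from ZT 0 to ZT 21 (Zeitgeber time, hours after dawn), with 2 separately grown cultures, called replicates A and B, per time point and 8 time points in all. All cultures were shaken without aeration in Tris-acetate-phosphate medium and had spent 48 hr under alternating light (12 hr) and dark (12 hr) before sampling. The ZT 0 cultures were still in the dark when harvested and the ZT 12 cultures still in the light, so that ZT 3, 6, 9 and 12 are the light samples. No treatment other than the time of day differs between the groups, acetate was present in every culture, and the CO2 level of the cultures was not a variable of the design.

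*C. reinhardtii* lives in water where CO2 can be scarce, and it raises the CO2 level around Rubisco by pumping bicarbonate inward. HLA3 and LCI1 act at the plasma membrane and LCIA at the chloroplast envelope. In the thylakoids bicarbonate is turned back into CO2, which is fixed in the pyrenoid, a dense Rubisco body of the chloroplast. LCIB and LCIC form a complex in the chloroplast stroma that is held to recapture CO2 leaking from the pyrenoid. The mechanism is known for being induced when CO2 is low in the light, under the control of CIA5, and for being damped when CO2 is abundant.

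Levels are given as FPKM, a count of sequenced fragments relative to transcript length and library size, after each library was scaled to a common 75th percentile. FPKM account for transcript length, so that levels can be set beside each other between genes. The authors' tables hold between 5.87e+06 and 2.19e+07 fragments per library, as recovered from the confidence limits of the FPKM, with the lowest number in replicate B at ZT 12. After scaling, the median of the 12153 gene models with a mean of at least 1 FPKM still differed between libraries by 0.13 on the log2 scale, and differences of that size between time points are not read as changes. RNA was extracted from whole cultures of cells that divide in a daily rhythm, and fewer cells with a transcript cannot be told apart from less of it per cell.

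The genes differed widely in level. LCIB had a mean of 71.0 FPKM over the 16 libraries and stood at place 502 of 17114 gene models in that order, and LCIC had a mean of 55.6 FPKM at place 615. CIA5 followed with 9.12 FPKM, CCP2 with 4.16 and HLA3 with 1.19. LCIA (0.322 FPKM), CCP1 (0.248) and LCI1 (0.128) lay under the mean of 1 FPKM that was required for the main tests, with 275, 242 and 97 fragments over all libraries. Thus 5 of the 8 genes passed this filter, and the other 3 were tested in a fit of the 16815 gene models above 0 in at least 1 library and in a fit of the recovered fragments.

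LCIB and LCIC, the stromal pair, shared a narrow maximum at ZT 3, fell to their lowest levels at ZT 9 to ZT 12, and climbed again in the dark. HLA3 ran against them: it dropped at ZT 3, when they peaked, and recovered as they fell. The other transporters, LCIA and LCI1, were seen above a few fragments mainly at ZT 3. CCP2 held its maximum over ZT 3 and ZT 6, and CIA5 varied 2.01-fold, the smallest range among the genes tested, and was highest from ZT 21 through ZT 0 to ZT 3.

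**Figure D1:**
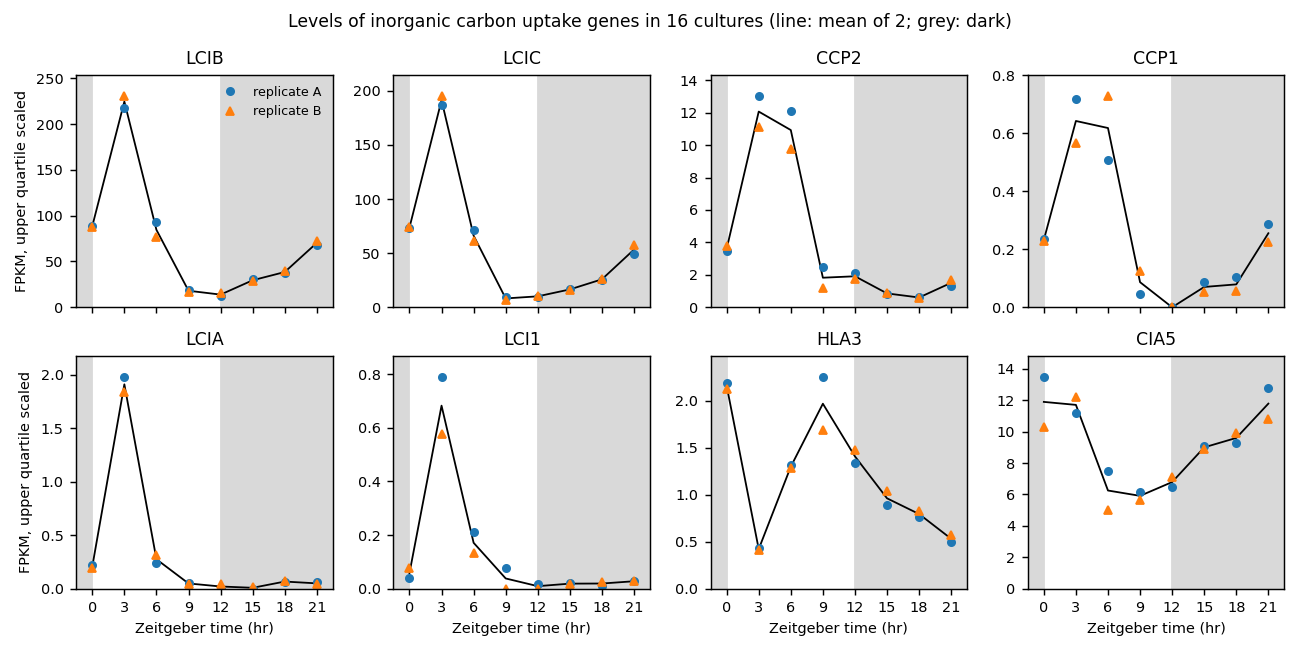
Scaled FPKM of the 8 genes (vertical axes, linear from 0, a scale for each gene) against Zeitgeber time in hr; points are the 2 cultures at each time point, lines join their means, and grey marks the dark. LCIB, LCIC, LCIA and LCI1 stand highest at ZT 3 in both cultures, whereas HLA3 is lowest there.

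In the dark just before dawn LCIB stood at 89.2 FPKM in replicate A and 88.0 in replicate B. At ZT 3 it was 218 and 231 FPKM, then 92.6 and 76.4 at ZT 6, 19.3 and 16.8 at ZT 9, and 11.8 and 15.9 at ZT 12. In the dark it was 30.8 and 28.2 at ZT 15, 37.6 and 39.3 at ZT 18, and 68.1 and 72.5 at ZT 21. Both cultures at ZT 3 thus lay above all others, and a level near that of ZT 6 had already been reached in the dark before dawn. The highest mean, 224.5 ± 9.13 FPKM (SD, n = 2), was 16.2-fold the lowest, 13.8 ± 2.93 at ZT 12. These values rest on 435 to 13177 fragments per library.

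LCIC, the partner of LCIB in the stromal complex, took the same course. It was 73.6 and 73.7 FPKM at ZT 0, 187 and 195.5 at ZT 3, 71.2 and 61.1 at ZT 6, 9.43 and 6.93 at ZT 9, and 9.89 and 10.3 at ZT 12. In the dark it was 17.1 and 15.9 at ZT 15, 25.5 and 26.2 at ZT 18, and 49.4 and 57.2 at ZT 21. No culture at any other time point overlapped those at ZT 3, and the mean was 191.3 ± 6.02 FPKM at ZT 3 against 8.18 ± 1.77 at ZT 9 (SD, n = 2), a 23.4-fold fall. The fall from ZT 6 to ZT 9 was 8.09-fold for LCIC and 4.68-fold for LCIB, each within 3 hr of continuous light.

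The ratio of LCIC to LCIB in a library ranged from 0.412 to 0.858, with a median of 0.747. It was 0.852 ± 0.00786 at ZT 3 and 0.451 ± 0.0544 at ZT 9 (SD, n = 2), and at ZT 12 it was 0.841 in replicate A and 0.648 in replicate B. After dusk it went from 0.560 ± 0.00604 at ZT 15 to 0.672 ± 0.00746 at ZT 18, 0.757 ± 0.0449 at ZT 21 and 0.832 ± 0.00947 at ZT 0. By these means the transcripts of the pair were nearest to equal at ZT 0 and ZT 3 and least equal at ZT 9, and the cultures at ZT 12 spanned much of that range, with replicate A above both cultures at ZT 0. LCIB was the more abundant in every library. The genes are of 1 family, so that part of their reads could be placed on either. How many was not tested, and the ratio of 2 FPKM also carries any error in transcript length.

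HLA3, an ABC transporter that carries bicarbonate across the plasma membrane, had 2.19 and 2.13 FPKM at ZT 0 and only 0.432 and 0.408 at ZT 3. It stood at 1.31 and 1.28 at ZT 6, 2.25 and 1.68 at ZT 9, and 1.34 and 1.48 at ZT 12. In the dark it was 0.888 and 1.03 at ZT 15, 0.764 and 0.824 at ZT 18, and 0.491 and 0.569 at ZT 21. The cultures at ZT 3 lay under all others, and those at ZT 0 and ZT 9 overlapped and lay above all others, so that HLA3 had 2 maxima in a day. Between ZT 21 and ZT 0, both in the dark, its mean rose 4.08-fold, and between ZT 0 and ZT 3 it fell 5.14-fold, from 2.16 ± 0.0460 to 0.420 ± 0.0171 FPKM (SD, n = 2). The values rest on 55 to 344 fragments per library.

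CCP2, a carrier of the mitochondrial carrier family whose transcript is known to be induced by low CO2, had 3.46 and 3.75 FPKM at ZT 0, 13.1 and 11.1 at ZT 3, and 12.1 and 9.78 at ZT 6. It was 2.49 and 1.16 at ZT 9, 2.09 and 1.73 at ZT 12, 0.833 and 0.876 at ZT 15, 0.631 and 0.575 at ZT 18, and 1.31 and 1.71 at ZT 21. The cultures at ZT 3 and ZT 6 overlapped and lay above all others. From 12.1 ± 1.38 FPKM at ZT 3 the mean came to 0.603 ± 0.0397 at ZT 18 (SD, n = 2), a 20.02-fold difference.

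CIA5, a zinc-binding nuclear protein without which the genes of the mechanism are not induced, kept to a narrower range. It was 13.5 and 10.3 FPKM at ZT 0, 11.2 and 12.2 at ZT 3, 7.5 and 4.999 at ZT 6, 6.18 and 5.64 at ZT 9, and 6.49 and 7.08 at ZT 12. In the dark it was 9.10 and 8.91 at ZT 15, 9.27 and 9.94 at ZT 18, and 12.8 and 10.8 at ZT 21. The cultures at ZT 21, ZT 0 and ZT 3 overlapped each other and lay above all others, and those at ZT 6, ZT 9 and ZT 12 lay under all others. At ZT 6 they overlapped both ZT 9 and ZT 12, while those at ZT 9 lay under those at ZT 12. Levels at ZT 15 and ZT 18 lay in between.

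LCIA, a channel for bicarbonate in the chloroplast envelope, was 1.98 and 1.84 FPKM at ZT 3, from 98 and 100 fragments. At ZT 0 it was 0.219 and 0.192 FPKM and at ZT 6 it was 0.236 and 0.312, from 10 to 16 fragments in each of these libraries. Elsewhere it did not exceed 0.0706 FPKM or 6 fragments, and it was at 0 in replicate A at ZT 12 and at ZT 15. The mean at ZT 3 was 9.30-fold that at ZT 0 and 6.97-fold that at ZT 6.

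LCI1, a plasma membrane protein of inorganic carbon uptake, was lower still. It had 35 and 28 fragments at ZT 3 (0.790 and 0.576 FPKM) and 8 and 6 fragments at ZT 6 (0.211 and 0.131 FPKM). In the other 12 libraries it had 0 to 4 fragments, and at 3 fragments or fewer in a library a level was not told apart from 0. The mean at ZT 3 was 4.00-fold that at ZT 6, and no ratio of mean FPKM is given against time points nearer to 0. Fitted differences from such time points are given below, and their size is uncertain.

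CCP1, the close copy of CCP2, was 0.717 and 0.568 FPKM at ZT 3 (38 and 33 fragments) and 0.507 and 0.730 at ZT 6 (23 and 40 fragments). It was 0.237 and 0.228 at ZT 0 and 0.287 and 0.224 at ZT 21, and it had no fragment in either culture at ZT 12. At ZT 9, ZT 15 and ZT 18 it was between 0.0472 and 0.126 FPKM, from 3 to 11 fragments. Its mean at ZT 3 was at least 5.97-fold higher than at ZT 12, where 3 fragments per library would correspond to 0.108 FPKM. As CCP1 and CCP2 are close copies and each read was given 1 place, reads of 1 gene may have been counted for the other, and the level of CCP1 is uncertain for that reason. The ratio of CCP2 to CCP1 was not constant over the 13 libraries in which CCP1 had more than 3 fragments, and ranged from 4.57 to 23.8 with a median of 13.4.

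Each of the 5 genes tested differed among the 8 time points (limma on log2(FPKM + 1), adjusted by Benjamini-Hochberg over all 12153 gene models), where 99.2% of all gene models were called, so that this test hardly sets these genes apart. A 24-hr wave was called in 4 of the 5, against 82.4% of all gene models. Its amplitude, from the middle to the crest on the log2(FPKM + 1) scale, was 1.57 ± 0.19 (SE) for LCIB (adjusted p = 8.15e-06), 1.82 ± 0.22 for LCIC (7.108e-06), 1.40 ± 0.16 for CCP2 (4.979e-06) and 0.46 ± 0.08 for CIA5 (0.0001734). The median over all gene models tested was 0.46, and LCIB, LCIC and CCP2 stood at the 95.8, 97.7 and 94.1 percentile of that distribution, CIA5 at the 50.2 percentile. The added 1 compresses levels of a few FPKM, as those of CCP2 and HLA3, and the order of the genes depends on it. In the fit of recovered fragments the amplitude was 2.16 for CCP2, 1.84 for LCIC, 1.58 for LCIB, 0.51 for CIA5 and 0.49 for HLA3. The fitted crests lay at ZT 1.12 for LCIB and ZT 1.03 for LCIC, before their highest time point, at ZT 4.19 for CCP2 and at ZT 21.9 for CIA5. For HLA3, with its 2 maxima, the amplitude was 0.23 ± 0.13 and its adjusted p was 0.2561. Without the 8 libraries of replicate A the wave of CIA5 was no longer called (amplitude 0.45, adjusted p = 0.07342). In the fit without the filter, where 74.6% of gene models were called, LCIA (amplitude 0.47, adjusted p = 0.01083, crest at ZT 3.02), LCI1 (0.23, 0.01325, ZT 3.45) and CCP1 (0.31, 0.0002507, ZT 2.97) had a called wave, and with the 8 libraries of replicate A or B alone LCIA and LCI1 did not (adjusted p 0.1571 to 0.1661).

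A score of cycling was rebuilt from the study's description, from the power of a 24-hr period in the values of both replicates placed end to end. Its windows and random orders were set here, so that it is not the study's own score and its share of called gene models is that of the rebuilt score alone. It was 1, the highest score there is, for 7 of the 8 genes (permutation p = 0.01582, the share of scores from values in random order that reached 1), where 65.7% of gene models above 0 were called. For HLA3 the score was 0.0598 (permutation p = 0.9418). A 12-hr component beside the 24-hr wave was called in 3 of the 5 genes, against 14.1% of all gene models, with an amplitude of 0.68 for LCIB (adjusted p = 0.002174), 0.75 for LCIC (0.005364) and 0.47 for CCP2 (0.04471). The call of CCP2 was lost in most alternatives, for example without ZT 9 replicate B (0.34, adjusted p = 0.06659) and without ZT 3 replicate A (0.45, adjusted p = 0.09829), and with the 8 libraries of replicate A or of replicate B alone limma called 0 of the 5 (lowest adjusted p 0.9986), of which 2 had an unadjusted p under 0.05 in either case. The amplitudes without replicate A and without replicate B were 0.65 and 0.71 for LCIB and 0.75 and 0.74 for LCIC, close to those with all libraries, and 8 libraries leave few residual degrees of freedom beside 2 waves. For HLA3 the 12-hr component was not called (0.28, adjusted p = 0.2109).

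The steps between neighboring time points show when the genes moved. From ZT 0 to ZT 3, across dawn, 3 of the 5 genes rose, against 32.6% of all gene models, and 1 fell, against 38.8%. On the log2(FPKM + 1) scale LCIB rose by 1.33 ± 0.12 (SE; adjusted p = 1.047e-07), LCIC by 1.36 ± 0.11 (4.302e-08) and CCP2 by 1.5 ± 0.17 (1.32e-06). HLA3 fell by 1.15 ± 0.08 (1.014e-08), which placed it at the 4.40 percentile of all gene models in this step, while the 3 that rose were between the 94.9 and 96.1 percentile. For CIA5 the difference was -0.01 ± 0.14 (0.947). In the fit without the filter, where 27.8% of gene models rose in this step, LCIA, LCI1 and CCP1 rose too, by 1.27 ± 0.03 (1.272e-10), 0.67 ± 0.05 (3.845e-07) and 0.41 ± 0.06 (9.315e-05). As a pseudocount of 1 compresses such low levels, the fit of recovered fragments gives larger differences: 3.16 ± 0.33 for LCIA (8.095e-08), 3.41 ± 0.55 for LCI1 (2.295e-05), 1.42 ± 0.36 for CCP1 (0.001724) and -2.35 for HLA3 (1.854e-09), where 28.8% of gene models rose and 36.4% fell. The value for LCI1 rests on 2 and 4 fragments at ZT 0, so that its size is uncertain.

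**Figure D2:**
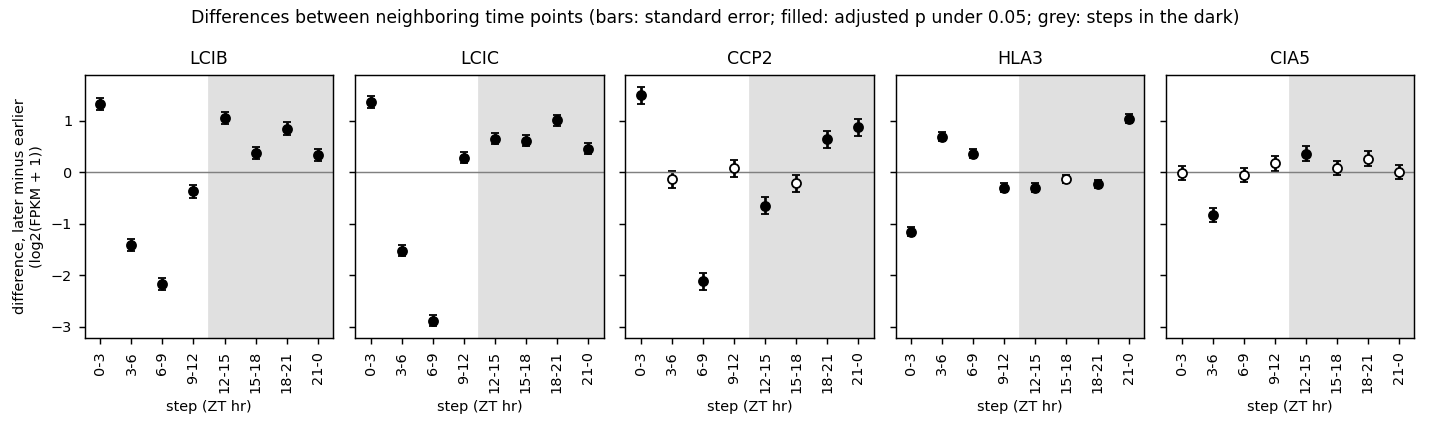
Differences in log2(FPKM + 1), later minus earlier time point, for the 8 steps of the day (horizontal axis) in the 5 genes that averaged 1 FPKM or more; bars are standard errors, filled points have an adjusted p under 0.05, and grey marks the steps in the dark. HLA3 falls by 1.15 in the step in which LCIB, LCIC and CCP2 rise by 1.33 to 1.5. The added 1 compresses the change of HLA3: in mean FPKM it falls 5.14-fold, and the others rise 2.5-fold to 3.3-fold.

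From ZT 3 to ZT 6 LCIB fell by 1.41 (adjusted p = 5.291e-08), LCIC by 1.52 (1.214e-08) and CIA5 by 0.83 (9.045e-05), so that 3 of 5 fell, against 36.0% of all gene models. HLA3 rose by 0.69 (2.456e-06), where 33.7% rose. CCP2 did not pass the test (-0.13, adjusted p = 0.4931). LCIA and LCI1 fell in the fit without the filter, by 1.19 (3.413e-10) and 0.52 (3.199e-06), where 31.2% of gene models fell, whereas CCP1, like CCP2, did not pass the test (-0.02, adjusted p = 0.7952). Thus the carriers CCP1 and CCP2 still stood at 96.2% and 90.6% of their highest mean at ZT 6, when LCIB, LCIC, LCIA and LCI1 were at 37.6%, 34.6%, 14.4% and 25.0% of theirs.

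From ZT 6 to ZT 9 LCIB fell by 2.16 (8.625e-10), LCIC by 2.88 (3.812e-11) and CCP2 by 2.11 (4.277e-08), 3 of 5 genes against 28.8% of all gene models, and HLA3 rose by 0.36 (0.001387), where 34.6% rose. This was the largest step of the day for LCIB, LCIC and CCP2, and it fell within the light. For CIA5 the difference was -0.05 (0.781). In the fit without the filter CCP1 fell by 0.57 (8.012e-06) and LCIA by 0.28 (2.226e-05), where 22.7% of gene models fell. LCI1, with 4 and 0 fragments at ZT 9, was at -0.17 (0.01429), a call lost without ZT 6 replicate A (-0.13, 0.1238) or ZT 9 replicate B (-0.12, 0.1341).

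From ZT 9 to ZT 12 the calls of LCIB (-0.37, adjusted p = 0.01082), LCIC (0.29, 0.03069) and HLA3 (-0.30, 0.005032) rest on single libraries: 71.3% of all gene models were called in this step. Without ZT 12 replicate A the difference was -0.17 for LCIB (0.2084) and 0.32 for LCIC (0.0631), without ZT 9 replicate A it was -0.28 for LCIB (0.09347) and -0.16 for HLA3 (0.1066), and without ZT 9 replicate B it was 0.09 for LCIC (0.4634). LCIC without ZT 12 replicate B gave 0.26 (0.1176). CCP2 was not called with all libraries and was called without ZT 9 replicate A (0.43, 0.01067). CCP1 went from 3 and 6 fragments at ZT 9 to none at ZT 12 and 5 and 4 at ZT 15. It was not called in the fit without the filter (-0.12, 0.1142 and 0.10, 0.2012 in these steps), and it was called as lower and then higher in that of recovered fragments (adjusted p = 0.007304, where 37.9% of gene models fell, and 0.01246, where 29.7% rose) and with a pseudocount of 0.1 (0.004422 and 0.01154). Fitted differences against a time point without fragments depend on the prior count and are not given.

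After dusk the stromal pair rose while cultures were in the dark. From ZT 12 to ZT 15 LCIB rose by 1.05 (1.811e-06) and LCIC by 0.66 (0.0001104), where 34.2% of all gene models rose. CCP2 fell by 0.65 (0.003204) in the same step, where 31.9% fell. HLA3 (-0.30, 0.00567) and CIA5 (0.36, 0.03547) also passed the test with all libraries, and without ZT 15 replicate A neither did (-0.24, 0.05752 and 0.35, 0.1178). CIA5 was also lost without ZT 12 replicate A (0.31, 0.1509), ZT 12 replicate B (0.42, 0.06024) or ZT 15 replicate B (0.38, 0.08418).

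From ZT 15 to ZT 18, in the middle of the dark, LCIC rose by 0.62 (0.001342), where 9.25% of all gene models rose. LCIB was called with all libraries (0.37, 0.03952), and lost the call when any of 8 libraries was left out, among them the 4 of these time points, with an adjusted p from 0.05036 without ZT 3 replicate A to 0.2025 without ZT 15 replicate B. CCP2 (-0.21, 0.4344), HLA3 (-0.13, 0.3299) and CIA5 (0.08, 0.7516) were not called.

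From ZT 18 to ZT 21 LCIB rose by 0.85 (3.811e-05) and LCIC by 1.01 (5.124e-06), where 25.0% of all gene models rose. CCP2 rose by 0.64 (0.00565), a call lost without ZT 21 replicate B (0.53, 0.06366). HLA3 was at -0.23 (0.03508), where 20.2% fell, a call lost without any of the 4 libraries of these time points (adjusted p from 0.06431 without ZT 21 replicate B to 0.1581 without ZT 18 replicate B). CCP1 was called as higher in the fit without the filter (0.22, 0.01474), where 19.6% rose, and lost the call without ZT 18 replicate B (0.19, 0.1104) or ZT 21 replicate A (0.18, 0.09976).

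From ZT 21 to ZT 0, in the last hours before dawn, LCIC rose by 0.46 (0.001938), CCP2 by 0.88 (0.0002885) and HLA3 by 1.05 (4.45e-08), and LCIB was at 0.33 (0.02212), so that 4 of 5 genes were called as higher, against 33.0% of all gene models. The call of LCIB was lost without ZT 0 replicate A (0.32, 0.08273), ZT 0 replicate B (0.34, 0.06495) or ZT 21 replicate A (0.29, 0.1098). LCIA rose by 0.20 in the fit without the filter (0.0003121), where 29.0% rose, while LCI1 (0.04, 0.5348), CCP1 (-0.03, 0.7545) and CIA5 (0.01, 0.9742) were not called. Before dawn is the only step in which HLA3 and LCIC were both called as higher.

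With all libraries, LCIC and HLA3 were both called in 7 of the 8 steps and went in opposite directions in 6 of them. LCIB and HLA3 were both called in 7, in opposite directions in 5. These counts include steps from ZT 9 to ZT 15 and from ZT 18 to ZT 21, where HLA3 lost its call when a single library was left out. The opposite calls in the steps from ZT 0 to ZT 9 held whichever library was left out. The ratio of HLA3 to LCIB was 0.00188 ± 0.000152 at ZT 3 and 0.109 ± 0.0118 at ZT 9 (SD, n = 2), and at ZT 12, with 0.103 ± 0.0146, it was still far above all time points in the dark, where the highest mean was 0.0328 at ZT 15. LCIB was thus the more abundant transcript per length in every library, and its excess over HLA3 shrank from morning to afternoon.

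The mean of the light samples minus that of the dark samples set CCP2 and CIA5 apart in opposite directions. CCP2 was higher in the light by 1.29 ± 0.08 on the log2(FPKM + 1) scale (adjusted p = 9.499e-10), where 44.5% of all gene models were higher, and CIA5 was lower (-0.46 ± 0.07, 2.299e-05), where 39.5% were lower. Neither difference holds for the light as a whole. CCP2 had means of 1.82 and 1.91 FPKM at ZT 9 and ZT 12 in the light, under the 3.60 of ZT 0 in the dark. CIA5 had a mean of 11.7 FPKM at ZT 3 in the light, near the 11.9 of ZT 0 in the dark. For LCIB (-0.13, 0.05247), LCIC (-0.14, 0.03321) and HLA3 (0.11, 0.02031) the difference was about the size of the shift between library medians given above. The call of LCIC was lost with libraries scaled to a common median (-0.08, 0.2287). With FPKM as deposited HLA3 turned to -0.0041 (0.9353), while LCIB was at -0.39 (1.332e-05), LCIC at -0.39 (3.718e-06) and CIA5 at -0.70 (2.554e-07). Leaving out ZT 15 replicate A alone removed both (-0.12, 0.06972 and 0.10, 0.05015). LCIC also lost the call without any of 8 other libraries (adjusted p up to 0.08793 without ZT 6 replicate B), HLA3 without ZT 9 replicate A (0.08, 0.05708), and LCIB gained it without any of 4 libraries (down to 0.003867 without ZT 12 replicate B). The light samples of LCIB and LCIC range from their highest to their lowest level, and the sign depends on the scale: as a plain mean of FPKM over time points LCIB was 85.2 in the light and 56.7 in the dark (a ratio of 1.5), and LCIC 68.9 and 42.3 (a ratio of 1.63). No direction between light and dark is therefore given for the pair. Of the low genes, LCIA (0.39, 6.301e-10) and LCI1 (0.22, 8.428e-06) had a higher mean in the light in the fit without the filter, as 39.1% of gene models had. This came from ZT 3 and ZT 6 and does not hold for the light as a whole. In the light at ZT 9 and ZT 12 LCIA had means of 0.0477 and 0.0192 FPKM, under the 0.206 of ZT 0 in the dark. LCI1 had 0 to 4 fragments per library at ZT 9 and ZT 12. CCP1 was higher in the fit without the filter too (0.17, 0.0002452) but not in the fit of recovered fragments (0.01, 0.9753).

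**Figure D3:**
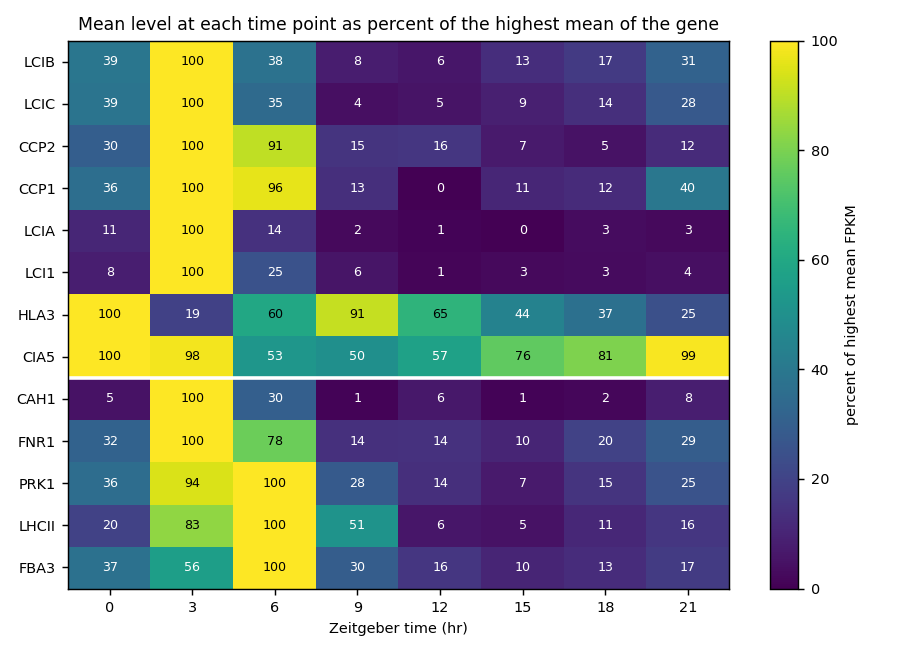
Mean FPKM of 2 cultures at each time point (columns, Zeitgeber time in hr) as a percent of the highest mean of the same gene (color and printed number), for the 8 genes above the white line and for CAH1, FNR1, PRK1, LHCII and FBA3 below it. LCIB, LCIC, CCP2, CCP1, LCIA, LCI1, CAH1 and FNR1 are highest at ZT 3, and HLA3 and CIA5 at ZT 0.

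CAH1, the periplasmic carbonic anhydrase that supplies the uptake system from outside the cell, is the other gene of the mechanism that the sources used here pair with a gene model. It was highest at ZT 3 like 6 of the 8 genes, with 51.6 and 46.6 FPKM, but its course outside the morning differed from that of LCIB and LCIC. It was called as higher from ZT 9 to ZT 12 (1.59 ± 0.14, adjusted p = 1.168e-07), as lower from ZT 12 to ZT 15 (-1.47 ± 0.14, 3.647e-07) and as lower from ZT 21 to ZT 0 (-0.60 ± 0.14, 0.001688). In the last 2 of these steps LCIC was called as higher. From ZT 0 to ZT 3 CAH1 rose by 3.92 ± 0.14 (7.94e-12), against the 1.5 of CCP2. Of the photosynthesis genes set beside them, FNR1 was highest at ZT 3, and PRK1, LHCII and FBA3 at ZT 6, the time at which CCP2 was still near its maximum. Which of these genes share a control was not tested.

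The likeness of profiles was described by the Pearson correlation of log2(FPKM + 1) over the same 16 libraries, which share depth and time of day. Among the 12152 other gene models with a mean of at least 1 FPKM, LCIC was the most like LCIB (r = 0.989), followed by Cre07.g334350 (0.983). For LCIC the most like was Cre10.g458500 (0.990), and LCIB came next. HLA3 was most like Cre06.g259650 (0.981) and Cre10.g428450 (0.979), which are also highest at ZT 0, and its r with LCIB was -0.44, at place 9968 of 12152. CCP2 was most like Cre01.g054150 (0.978) and Cre13.g566200 (0.967), both highest at ZT 6, and FBA3 stood at place 65 (0.926), ahead of LCIC at place 1211. CIA5 was most like Cre02.g085250 (0.947), and its r was 0.61 with LCIB and -0.46 with HLA3. The annotation used here gives these gene models no names.

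CCP2 and HLA3 belong to large families, which shows how common their patterns are among related genes. Over all gene models tested, 82.4% had a called 24-hr wave and the median amplitude was 0.46. Of the other 42 gene models of the mitochondrial carrier tree, 39 were tested, 30 had a called 24-hr wave, and the median amplitude was 0.47. Among them 1 had a larger amplitude than CCP2, which stood at the 94.1 percentile of all gene models tested. At ZT 3, 7 of them had their highest mean, as had 14.9% of all gene models tested. Of the other 23 gene models in the ABC transporter tree that holds HLA3, 19 were tested and 16 had a called 24-hr wave, with a median amplitude of 0.41. Among these 17 had a larger amplitude than HLA3, 2 were highest at ZT 0, and from ZT 0 to ZT 3 6 fell and 8 rose. Over all gene models tested, 12.4% were highest at ZT 0, and in that step 38.8% fell and 32.6% rose. The amplitude of HLA3 stood at their 19.0 percentile. These counts describe the trees and were not tested, and the trees may lack members. Amplitudes are on the log2(FPKM + 1) scale, which compresses those of low gene models such as HLA3.

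**Figure D4:**
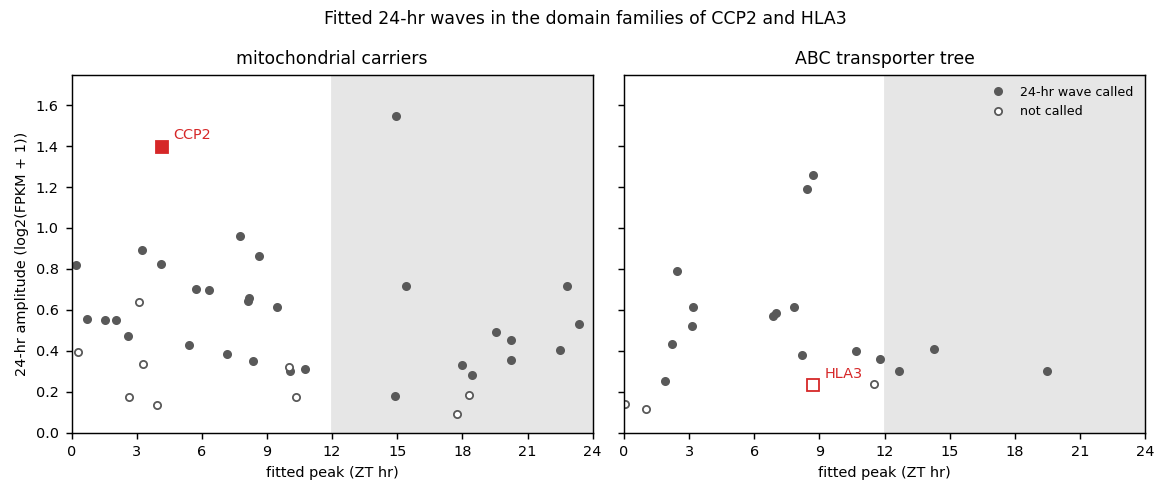
Amplitude of the fitted 24-hr wave (vertical axis, log2(FPKM + 1)) against its fitted crest (horizontal axis, ZT in hr) for gene models of the mitochondrial carrier tree (left) and the ABC transporter tree (right) with a mean of at least 1 FPKM; filled symbols have an adjusted p under 0.05 and grey marks the dark. CCP2 (red, amplitude 1.40) lies above all carriers but 1, and HLA3 (red, open, 0.23) lies under 17 of the other 19 ABC transporters.

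In genome version 4.3, as the files give positions, LCIB lies on chromosome 10 at 4589049-4592078 and LCIC on chromosome 6 at 7141540-7144618, on different chromosomes. LCIA lies on chromosome 6 at 7279921-7282814, LCI1 on chromosome 3 at 1912555-1915165, and HLA3 and CIA5 on chromosome 2 at 3208374-3215491 and 3005689-3009495. CCP2, at 1804459-1807524 of chromosome 4, and CCP1, at 1877713-1880795, enclose a stretch of 76.3 kb that also holds CAH1 (1849050-1853299). Of the 14 gene models from CCP2 to CCP1, 8 had their highest mean at ZT 3, where 15.3% of all gene models above 0 did. Besides CCP1, CCP2 and CAH1 these include Cre04.g223050, next to CAH1, which went from 0.554 FPKM at ZT 0 to 10.6 at ZT 3, and Cre04.g222800, next to CCP2, which went from 1.48 to 2.43. CCP1 and CCP2 are copies of each other and set the ends of the stretch. They and CAH1 are among the 8 by the choice of the stretch, and the count is given as a description.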

How the data were processed

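RNA of 16 cultures was sequenced, and each was assigned to its time point and replicate by its label. The authors mapped reads with TopHat to genome version 4.3, allowing 1 hit per read, and deposited FPKM per gene model from Cufflinks with lower and upper confidence limits. The versions of both programs are not given in the sources used here. As the deposited FPKM differ in scale from library to library, every library was multiplied by a factor (0.687 to 1.01) that gives the 75th percentile of its 17114 gene models the same value. Fragment numbers were recovered from the limits and were within 0.05 of a whole number in 100% of values under 300 fragments. They cover counting error only.

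The 8 genes were named by their gene model, whether or not they varied, with at most 2 of the gene models most like each, and CAH1, PRK1, FBA3, LHCII and FNR1 for comparison. The genes and lists were chosen with earlier results of these data known. The 12153 gene models that averaged 1 FPKM or more were tested on the log2(FPKM + 1) scale by limma 3.58.1 (R 4.3.3, moderated variances with a trend on the mean level), and p was adjusted by Benjamini-Hochberg over all of them at 0.05. Terms were a factor of 8 time points with its contrasts, or waves of 24 hr and 12 hr. A cyclic score was rebuilt from the study's description and is not its own score: the 9 windows of 8 values and 10 random orders per gene were set here, with calls at p under 0.02 (the study's threshold). COSPOT was not run. Alternatives were other scalings, filters, pseudocounts, a replicate block and leaving out libraries. Tests of recovered fragments with voom weights (16169 gene models) and of the 3 low genes without the filter were chosen after seeing the data. The scripts were tested on simulated data. A deposited table of 50 genes holds none of the 8 and was not used. Protein and promoter sequences were not used here. All tables were made in Python 3.11.15 with numpy 2.4.6 and pandas 2.3.3, and figures with matplotlib 3.10.9.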

Additional observations from a re-analysis of the deposited data

How the results depend on the processing

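Over the alternatives, 2153 tests of single genes kept their side of the threshold, 94 lost the call and 24 gained it. In 1 more, a called difference turned its direction, that of HLA3 between light and dark, which was -0.0041 with FPKM as deposited. Turns of direction were counted only for steps and light minus dark, and only where a call was made. Differences that were never called may have turned too. Fewer or more genes pass another filter, and the counts of called genes move with it. Without the filter on low values (8 genes tested) 8 genes were called for any difference among time points, 7 for the 24-hr wave, 7 for light minus dark, 7 from ZT 0 to ZT 3, 7 from ZT 6 to ZT 9 and 1 from ZT 15 to ZT 18. Of all 16815 gene models in that fit, 15303, 12549, 12684, 10374, 9065 and 2330 were called in the same order of tests. With recovered fragments and voom weights the counts of the 8 genes in the first 5 of these tests were again 8, 7, 7, 7 and 7. Of the 16169 gene models in that fit, 15279, 12458, 12645, 10542 and 8883 were called. Most of these counts thus hardly set the 8 genes apart. With a mean of at least 5 FPKM (3 genes tested) 3 were called for any difference, 2 for light minus dark, 2 from ZT 0 to ZT 3, 2 from ZT 6 to ZT 9, 3 from ZT 12 to ZT 15, 2 from ZT 18 to ZT 21 and 2 from ZT 21 to ZT 0. The share of all gene models called with that filter is not given here. Leaving out libraries gave 5 of 5 genes for any difference in each case, 3 to 4 for the 24-hr wave, 0 to 3 for the 12-hr component and 2 to 5 for light minus dark. It gave 4 from ZT 0 to ZT 3, from ZT 3 to ZT 6 and from ZT 6 to ZT 9 in each case, 1 to 3 from ZT 9 to ZT 12 (1 without ZT 12 replicate A), 3 to 5 from ZT 12 to ZT 15 (3 without ZT 15 replicate A), 1 to 2 from ZT 15 to ZT 18, 2 to 4 from ZT 18 to ZT 21 (2 without ZT 21 replicate B) and 3 to 4 from ZT 21 to ZT 0. The deviations of samples of the same replicate letter had correlations from -0.27 to 0.33 over 28 pairs of time points, with a median of -0.03. Whether the letters pair the samples was not tested beyond these values. By the paper, a lane held 8 samples, and the replicates of each time point went to different lanes. Whether the letters follow the lanes was not tested. With the replicate block 4 genes were called for the 24-hr wave, 5 for any difference and 2 for the 12-hr component, where CCP2 had an adjusted p of 0.06059, as did CCP1 without the filter at 0.05171. Values of LCI1 rest on 0 to 4 fragments in 12 libraries.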
